A study of Mus musculus with 2 samples.

Results

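The 36 genes described here act in the last stages of the cell cycle, from G2 to cytokinesis, and were taken by symbol from 28692 genes listed in both count matrices. All 36 were found, and all are annotated as protein-coding. They were measured by single-cell RNA sequencing (10x Chromium 3′ chemistry) in MC38, a mouse colon carcinoma line, grown as tumours in C57BL/6 albino mice. Tumour pieces of 40 to 100 µm were set in collagen in a microfluidic chip for 6 days, with 1 library of cultures given the PD-1 blocking antibody RMP1-14 (aPD-1) and 1 library given the control antibody 2A3 (IgG), each at 10 µg/mL. On day 6 tumour cells were sorted by flow cytometry, with markers that the sources used here do not give. Treatment cannot be told apart from the sorting, loading and cell calling of each library. There was no replicate, so every difference below is one between 2 libraries and carries no test. Error ranges are 95% intervals of counting error only.

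Cells with at least 5000 unique molecular identifiers (UMIs, each standing for 1 captured transcript) and a mitochondrial share of no more than 10% were used. They numbered 3356 in aPD-1 (16577 UMIs in the median cell) and 2198 in IgG (20663). The same barcode occurred in both libraries for 8 cells. The tumour label could not be checked by keratins, since Krt18 was at 0 in both libraries, Krt19 and Epcam were also at 0 in aPD-1, and 5 epithelial genes summed to 0.114 CPM in aPD-1, against 0.344 CPM in IgG. CPM stands for the UMIs of a gene over all UMIs of the summed cells, on the usual CPM scale. Markers of fibroblasts (7 genes, none at 0) summed to 667 CPM in aPD-1, against 1040 CPM in IgG. Macrophage markers (9 genes) summed to 5.42 CPM in aPD-1 against 30.6 CPM in IgG, and endothelial markers (7 genes) to 20.4 CPM in aPD-1 against 55.1 CPM in IgG. T and NK cell markers (6 genes, Cd3e at 0 in both and Cd8a also in IgG) summed to 0.879 CPM in aPD-1 against 1.11 CPM in IgG.

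A dividing cell copies its DNA in S phase, prepares in G2 and separates its chromosomes in mitosis. Cyclin-dependent kinase 1 with cyclins A and B drives entry into mitosis, Aurora and Polo-like kinases build the spindle, the spindle checkpoint holds the cell until every chromosome is attached, and the anaphase-promoting complex then destroys cyclin B. The genes of this set are transcribed mostly in G2 and mitosis. Many of their promoters are known to carry a cell cycle homology region (CHR), bound by the DREAM and MMB complexes, downstream of CCAAT boxes bound by NF-Y.

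RefSeq promoter windows (GRCm38.p6, 250 bases before to 50 after the start) matched 32 of the 36 members in 34 windows; Aurkb, Ccna2, Dlgap5 and Tpx2 were not matched. CHR was searched as TTTGAA or TTCGAA and the CCAAT box as CCAAT, each on both strands. CHR letters were in 27 of 34 member windows (79.4%), against 19.2% of all 32851 windows. Within 50 bases of the start the shares were 67.6% and 5.31%. A CCAAT box was in 79.4% of member windows and 37.4% of all windows, and at least 2 were in 55.9% and 11.7%. The promoters of 34 S phase genes, a list of replication and nucleotide synthesis genes of which 29 were matched, had CHR near the start in 5.88% of windows. A list of 67 other mitosis genes, of which 49 were matched, had it in 56.6%. Only 1 CHR match overlapped a CCAAT match, in Cdca8.

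The windows of 6 members that the comparisons below turn on are shown 5′ to 3′, in the gene's direction, with CHR and CCAAT letters of either strand in capitals. Cdc20 and Ccnb2 had the lowest ratios between the libraries, Cenpa had the same level in both, Top2a had the highest ratio, Cdk1 is the kinase that starts mitosis, and Tacc3 had a low ratio and no match. They lie at chr4:118437294-118437593 (minus strand, Cdc20), chr9:70421505-70421804 (minus, Ccnb2), chr5:30666636-30666935 (plus, Cenpa), chr11:99024140-99024439 (minus, Top2a), chr10:69352863-69353162 (minus, Cdk1) and chr5:33657878-33658177 (plus, Tacc3).
Cdc20: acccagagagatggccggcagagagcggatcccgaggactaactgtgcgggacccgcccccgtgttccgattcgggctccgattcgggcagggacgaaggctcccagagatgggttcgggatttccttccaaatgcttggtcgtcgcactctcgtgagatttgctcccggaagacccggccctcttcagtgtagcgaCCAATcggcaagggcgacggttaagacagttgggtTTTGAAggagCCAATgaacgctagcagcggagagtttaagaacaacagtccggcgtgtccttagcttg
Ccnb2: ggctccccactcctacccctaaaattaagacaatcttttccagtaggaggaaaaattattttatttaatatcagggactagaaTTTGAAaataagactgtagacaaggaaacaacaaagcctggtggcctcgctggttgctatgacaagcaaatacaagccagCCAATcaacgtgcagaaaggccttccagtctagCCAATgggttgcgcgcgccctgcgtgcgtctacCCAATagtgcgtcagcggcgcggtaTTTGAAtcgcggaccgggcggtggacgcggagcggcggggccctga
Cenpa: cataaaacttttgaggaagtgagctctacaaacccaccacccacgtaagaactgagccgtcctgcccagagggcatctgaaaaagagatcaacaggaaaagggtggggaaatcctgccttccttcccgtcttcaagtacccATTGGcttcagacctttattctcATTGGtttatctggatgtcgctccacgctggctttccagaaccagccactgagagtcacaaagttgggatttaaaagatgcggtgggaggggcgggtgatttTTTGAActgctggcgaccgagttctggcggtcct
Top2a: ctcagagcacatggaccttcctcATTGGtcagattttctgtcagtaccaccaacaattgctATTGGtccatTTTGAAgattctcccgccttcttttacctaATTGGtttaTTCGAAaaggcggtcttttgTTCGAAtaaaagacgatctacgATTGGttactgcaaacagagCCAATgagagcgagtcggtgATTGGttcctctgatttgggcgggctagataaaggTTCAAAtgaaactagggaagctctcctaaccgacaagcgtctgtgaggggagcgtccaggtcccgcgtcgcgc
Cdk1: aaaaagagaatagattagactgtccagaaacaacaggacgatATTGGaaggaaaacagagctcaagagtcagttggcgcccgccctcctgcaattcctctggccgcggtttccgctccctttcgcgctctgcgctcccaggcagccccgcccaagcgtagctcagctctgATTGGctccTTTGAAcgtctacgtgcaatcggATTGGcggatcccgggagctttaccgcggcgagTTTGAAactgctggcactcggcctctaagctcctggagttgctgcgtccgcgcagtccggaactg
Tacc3: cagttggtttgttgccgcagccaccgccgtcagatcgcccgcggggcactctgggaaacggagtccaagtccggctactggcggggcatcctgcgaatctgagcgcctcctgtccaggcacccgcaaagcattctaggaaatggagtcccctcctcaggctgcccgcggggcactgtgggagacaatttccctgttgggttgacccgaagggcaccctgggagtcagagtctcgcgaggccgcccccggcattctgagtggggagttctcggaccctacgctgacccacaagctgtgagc
In Ccnb2, 3 CCAAT matches began at positions −87, −54 and −21 from the start, and CHR letters at 5 and −167. In Cdc20 the CHR letters began at −18, between CCAAT matches at −53 and −8. Top2a held 6 CCAAT and 4 CHR matches, and Tacc3 held none. The windows of Birc5, Knstrn and Nusap1, not shown, also held none, and these genes had ratios of 1.02, 0.997 and 0.826. A match is a description of letters, and a window without one says nothing about a factor. The 21 members with CHR near the start had a median log2 ratio of aPD-1 over IgG of −0.09 (from −0.64 to 0.38), and the 11 without it −0.30 (from −0.52 to 0.05). The windows of Cdca8 and Cdca3, counted among the 21, and of Kif2c, among the 11, lie wholly inside the GENCODE M21 bounds of their genes. Their starts are thus not the outer gene starts.

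**Figure D1:**
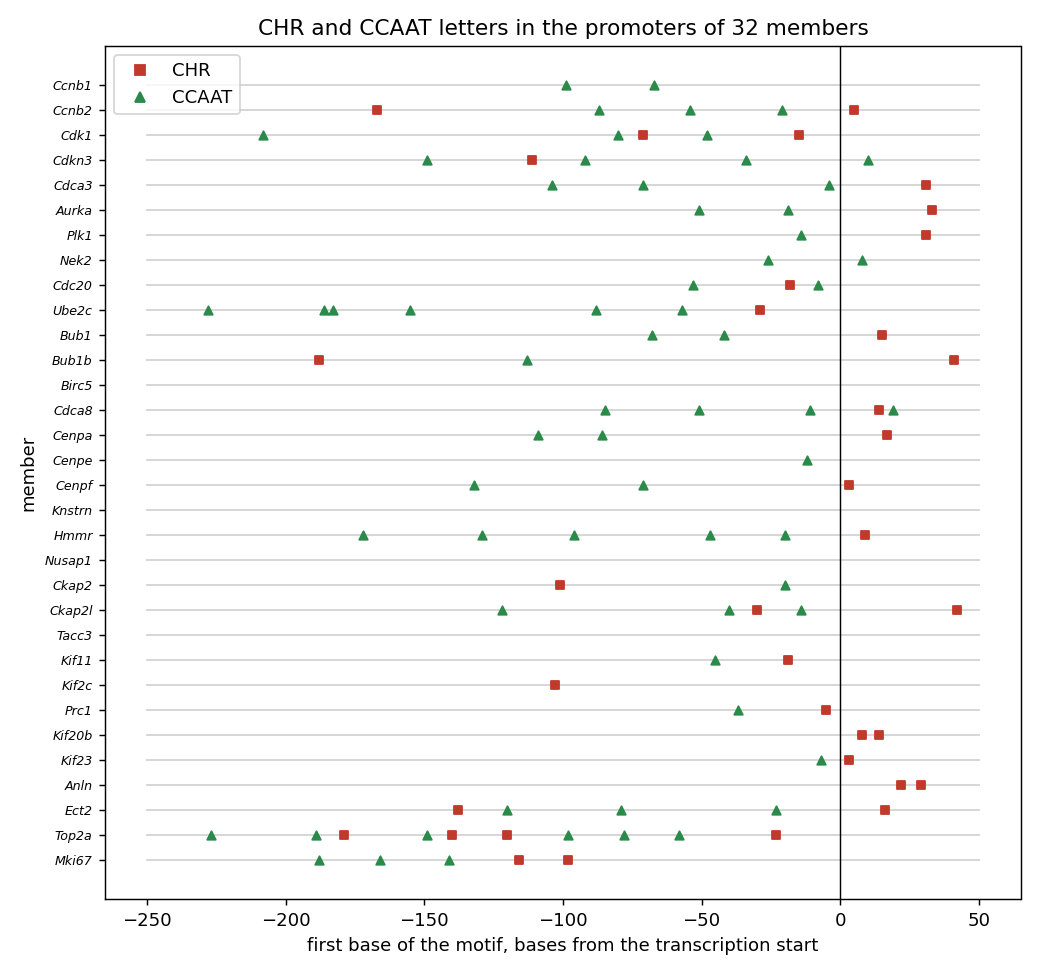
First base of each CHR (squares) and CCAAT (triangles) match, in bases from the transcription start, for 1 window of each of 32 members. CHR matches gather within 50 bases of the start, and CCAAT matches mostly lie before it.

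Of the 36 members, 31 reached a mean of 10 CPM; Nek2, Kif11, Kif2c, Ckap2l and Ect2 did not. Summed, the members made up 1403 CPM in aPD-1 (86259 UMIs), against 1510 CPM in IgG (74631 UMIs), a ratio of 0.929 (interval 0.920 to 0.939). That is a log2 ratio of −0.11, where the median of all 6967 genes of at least 10 CPM was −0.10. Relative to that median the sum differed by −0.0042. The module as a whole stood where the typical gene stood, and its members ranged widely on both sides of it.

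Of the cyclins, Cdk1 and their regulators, the B cyclins and Cdkn3 were lower in aPD-1 and the others closer to equal. Ccnb2, a B cyclin, was at 55.6 CPM in aPD-1, against 86.7 CPM in IgG, a ratio of 0.641 (interval 0.613 to 0.671), the lowest of the module. Ccnb1, the main mitotic B cyclin, was at 29.6 CPM in aPD-1 against 36.9 CPM in IgG (0.803, interval 0.752 to 0.857). Ccna2, the cyclin of S phase and G2, had a ratio nearer 1, at 47.3 CPM in aPD-1 against 49.1 CPM in IgG (0.963, interval 0.913 to 1.02). Cdk1, their kinase partner, was at 47.4 CPM in aPD-1 against 49.997 CPM in IgG (0.949, interval 0.899 to 1.001). Cdkn3, a phosphatase that acts on cyclin-dependent kinases, was at 34.0 CPM in aPD-1 against 46.2 CPM in IgG (0.736, interval 0.693 to 0.781). Cdca3, a mitotic entry factor, was at 92.5 CPM in aPD-1 against 96.2 CPM in IgG (0.962, interval 0.925 to 0.9999).

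The mitotic kinases and the checkpoint genes were mixed. Plk1, Polo-like kinase, was at 14.0 CPM in aPD-1, against 17.8 CPM in IgG (0.785, interval 0.714 to 0.863). Aurka, the Aurora kinase of the spindle poles, was at 20.4 CPM in aPD-1 against 21.8 CPM in IgG (0.937, interval 0.863 to 1.02), an interval that holds a ratio of 1. Nek2, a centrosome kinase, was at 5.22 CPM in aPD-1 against 5.81 CPM in IgG. Cdc20, the activator of the anaphase-promoting complex, was at 41.0 CPM in aPD-1, against 63.1 CPM in IgG (0.650, interval 0.616 to 0.685). Ube2c, the ubiquitin-conjugating enzyme of the same complex, went the other way, at 131 CPM in aPD-1 against 122 CPM in IgG (1.07, interval 1.04 to 1.11). The checkpoint kinase Bub1 was at 11.1 CPM in aPD-1 against 11.5 CPM in IgG, and its relative Bub1b (BubR1) at 14.1 CPM in aPD-1 against 18.8 CPM in IgG (0.750, interval 0.683 to 0.824).

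The chromosomal passenger complex, which corrects faulty attachments and later guides cytokinesis, summed close to equal, with 1 member apart. Aurkb, its kinase (chr11:69045647-69051664, plus strand, GENCODE M21 on GRCm38), was at 25.5 CPM in aPD-1, against 19.9 CPM in IgG (1.28, interval 1.18 to 1.39). Its partners were closer to equal, with Birc5 (survivin) at 108 CPM in aPD-1 against 105 CPM in IgG and Cdca8 (borealin) at 68.2 CPM in aPD-1 against 73.5 CPM in IgG. Of the centromere and kinetochore genes, Cenpa, the histone H3 variant of centromeres, was at 107 CPM in aPD-1 against 106 CPM in IgG (1.004, interval 0.968 to 1.04), and Knstrn at 39.4 CPM in aPD-1 against 39.5 CPM in IgG. Cenpf was at 25.9 CPM in aPD-1 against 26.6 CPM in IgG. Cenpe, a kinetochore motor, stood apart from these at 31.5 CPM in aPD-1 against 38.9 CPM in IgG (0.810, interval 0.760 to 0.863).

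Of the 9 spindle genes 8 had a ratio under 1. Tacc3, a spindle microtubule protein, was at 28.7 CPM in aPD-1, against 41.2 CPM in IgG (0.696, interval 0.652 to 0.742). Ckap2, a microtubule-associated protein, was at 18.1 CPM in aPD-1 against 25.5 CPM in IgG (0.710, interval 0.655 to 0.771), and Dlgap5 (HURP) at 23.9 CPM in aPD-1 against 33.4 CPM in IgG (0.717, interval 0.668 to 0.770). The microtubule proteins Hmmr, at 30.3 CPM in aPD-1 against 37.0 CPM in IgG, Nusap1, at 15.1 CPM in aPD-1 against 18.3 CPM in IgG, and Tpx2, at 71.6 CPM in aPD-1 against 78.2 CPM in IgG, had ratios from 0.820 to 0.917. The motors Kif11, at 7.16 CPM in aPD-1 against 8.03 CPM in IgG, and Kif2c, at 5.73 CPM in aPD-1 against 7.14 CPM in IgG, were low in both libraries. Ckap2l was the exception, at 10.3 CPM in aPD-1, against 8.62 CPM in IgG (1.19, interval 1.06 to 1.35).

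The cytokinesis genes were split. Prc1, which bundles the microtubules of the central spindle, was at 37.1 CPM in aPD-1, against 30.9 CPM in IgG (1.20, interval 1.12 to 1.28). The motors Kif20b, at 12.6 CPM in aPD-1 against 16.2 CPM in IgG, and Kif23, at 13.02 CPM in aPD-1 against 16.1 CPM in IgG, had ratios of 0.779 and 0.807. The scaffold Anln was at 22.9 CPM in aPD-1 against 24.8 CPM in IgG and the RhoA exchange factor Ect2 at 8.41 CPM in aPD-1 against 7.55 CPM in IgG. Top2a, the topoisomerase that untangles sister chromosomes, had the highest ratio of the module, at 118 CPM in aPD-1, against 90.8 CPM in IgG (1.31, interval 1.26 to 1.35). Mki67, which coats mitotic chromosomes, was at 31.5 CPM in aPD-1 against 30.3 CPM in IgG (1.04, interval 0.970 to 1.11).

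**Figure D2:**
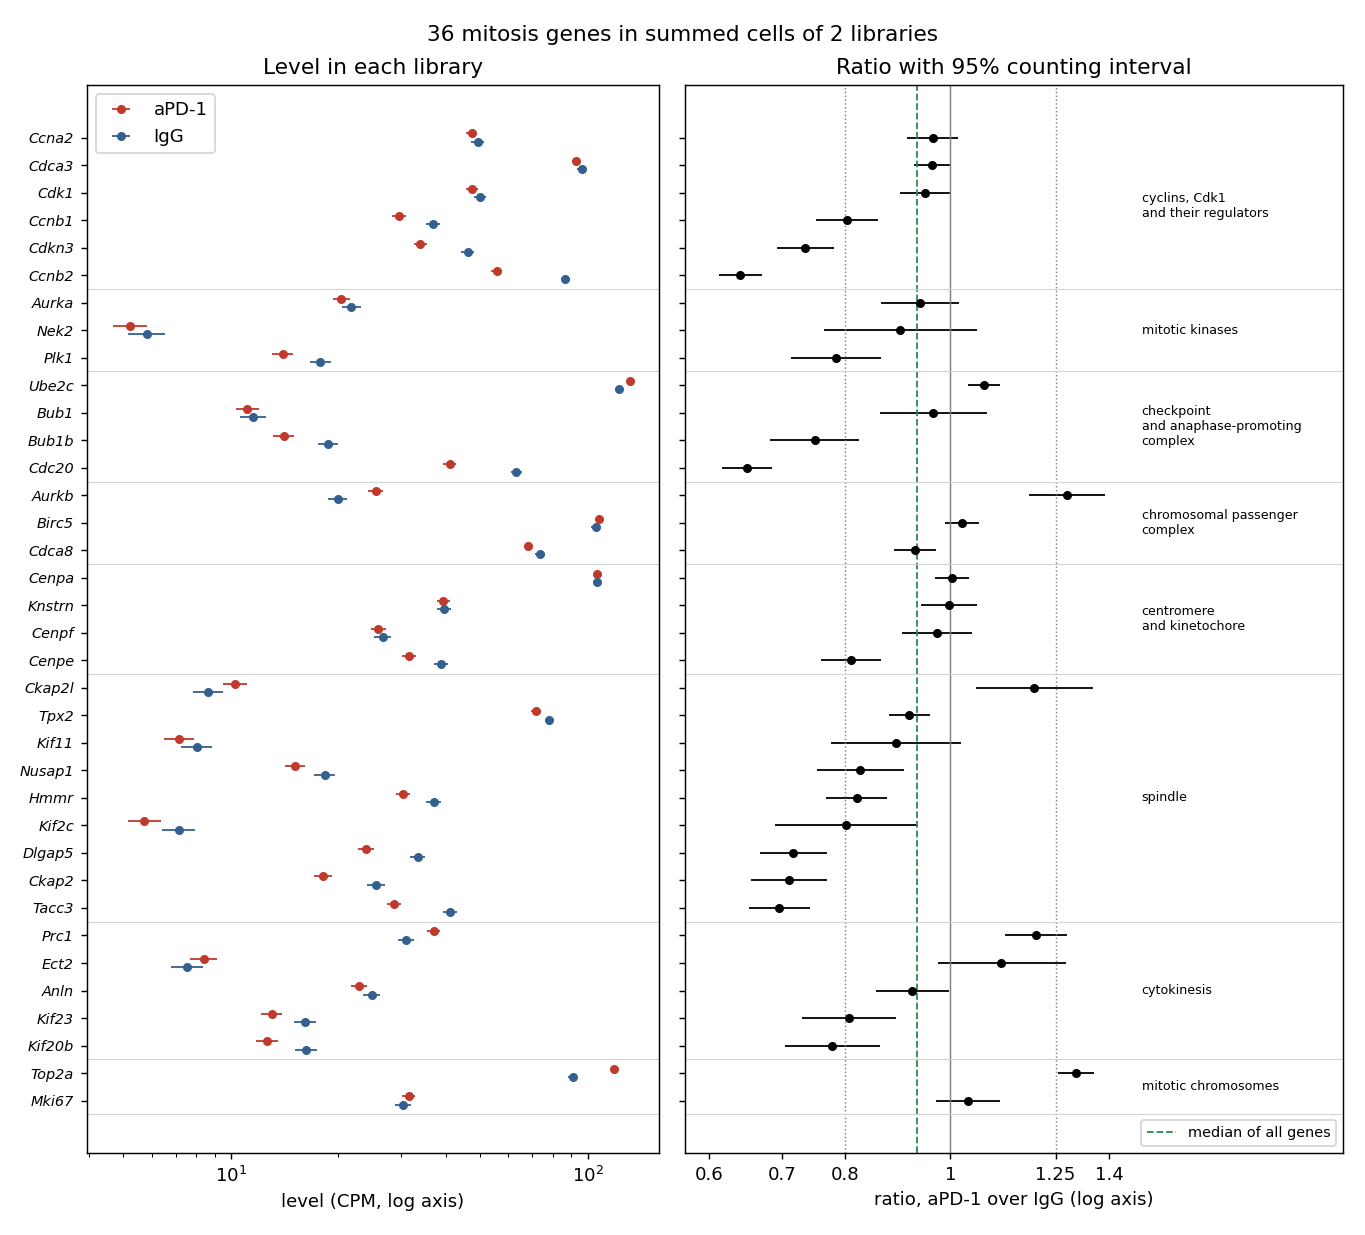
Level of each member in summed cells (left, CPM on a log axis, with exact Poisson intervals) and ratio of aPD-1 over IgG (right, log axis, with exact intervals), grouped by role. Ratios run from 0.641 (Ccnb2) to 1.31 (Top2a); dotted lines mark a ratio of 0.8 and its inverse and the dashed line the median of all genes.

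Members of at least 10 CPM were counted as lower in aPD-1 at a ratio of 0.8 or less, and as higher at its inverse or more. By that rule 9 of 31 members were lower in aPD-1 (29.0%), where 17.2% of all genes were. They were Ccnb2, Cdc20, Tacc3, Ckap2, Dlgap5, Cdkn3, Bub1b, Kif20b and Plk1. Another 2 of 31, Top2a and Aurkb, were higher (6.45%, beside 3.90% of all genes). At 1.5-fold the counts were 2 lower, Ccnb2 and Cdc20, beside 3.01% of all genes, and 0 higher, beside 0.531%. The median log2 ratio of the 31 was −0.12, beside −0.10 for all genes, and 7 of 31 had a ratio over 1, a share of 22.6% beside 32.9% of all genes. Relative to the median of all genes, 17 of 31 were below it. With the median of all genes set to a ratio of 1 the split was 6 lower and 3 higher, and with ribosomal protein and mitochondrial genes left out of the totals 6 lower and 4 higher. Cdca3 turned from a ratio under 1 to one over 1 under both scalings, and Ccna2, Cdk1, Aurka, Bub1, Cenpf and Knstrn, whose intervals hold 1, also lay above the median of all genes. Fibroblast markers differed between the libraries, as given above, and in cells with at least 10 fibroblast UMIs the members summed to 948 CPM in aPD-1, against 912 CPM in IgG. Without the 353 aPD-1 and 431 IgG cells rich in fibroblast, macrophage or endothelial markers, the counts were 14 lower and 0 higher. The part of such cells in the ratios was otherwise not tested. No share of all genes is given for the counts under either scaling or without these cells. Those counts are thus not a result about the members alone.

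The members went with other mitosis genes from cell to cell. Each cell was thinned at random to 5000 UMIs so that cells of different depth could be set side by side. Cells were then ranged by the 67 other mitosis genes, which hold no member. Hmgb2 and Ube2s weigh heavily in these ranges. They gave 866 and 460 of the 2824 CPM of the list in aPD-1, and 1006 and 411 of 2992 CPM in IgG. After thinning they were found in 82.4% and 78.9% of aPD-1 cells, and their ratios of aPD-1 over IgG were 0.861 and 1.12. In cells with 20 or more UMIs of the 67 genes, all 36 members had higher levels than in cells with under 5, in both libraries. For members with over 3 UMIs in the low range, the fold ran from 5.11 (Ccnb2) to 96.0 (Plk1) in aPD-1, with a median of 19.6. In IgG it ran from 5.17 (Anln) to 78.0 (Hmmr), with a median of 21.7. Hmmr, a spindle protein, was at 1.17 CPM in the low and 75.2 CPM in the high range of aPD-1, and at 1.08 and 84.2 CPM in the same ranges of IgG. Ccnb2 and Anln had the smallest folds, and Ccnb2 was at 17.0 CPM in the low and 86.9 CPM in the high range of aPD-1, and at 26.6 and 140 CPM in IgG.

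Across single cells the module was unevenly spread. At 5000 UMIs per cell the members had a median of 4 UMIs in aPD-1 cells and 3 in IgG cells, and a highest value of 55 in aPD-1 and 94 in IgG. No member UMI was seen in 20.4% of aPD-1 cells (interval 19.03 to 21.8%) and 21.4% of IgG cells (interval 19.7 to 23.2%). At least 20 member UMIs were found in 5.69% of aPD-1 cells (interval 4.93 to 6.53%) and 8.96% of IgG cells (interval 7.80 to 10.2%). At least 10 were found in 24.8% of aPD-1 cells, which held 63.3% of its member UMIs, and in 27.4% of IgG cells, which held 72.0%. The IgG library had the longer upper tail, while the shares of cells with no member UMI had overlapping intervals. Cells with at least 10 member UMIs were also the deeper ones before thinning, with a median of 19574 UMIs in aPD-1 and 23618 in IgG, whereas cells with none had 13948.5 in aPD-1 and 18299 in IgG.

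Coexpression was measured as Pearson's r of log2(UMIs + 1) across the thinned cells of each library, over 630 pairs of members. The r was positive for 626 pairs in aPD-1 (3356 cells) and 627 in IgG (2198 cells). It was small in these sparse counts, with a median of 0.12 in aPD-1 and 0.16 in IgG. Pairs of the 9 members of at least 50 CPM had medians of 0.27 in aPD-1 and 0.32 in IgG, and pairs of the 11 under 20 CPM 0.067 in aPD-1 and 0.098 in IgG, so the level of a gene goes with its r. The highest r in aPD-1 was that of Cdca3 with Cenpa (0.37, and 0.38 in IgG), and in IgG that of Ube2c with Birc5 (0.44, and 0.33 in aPD-1). With the 67 other mitosis genes, r was positive for 2281 of 2412 pairs in aPD-1 and 2319 in IgG, with medians of 0.065 and 0.090. With the 34 S phase genes it was positive for 1112 of 1224 pairs in aPD-1 and 1136 in IgG, with medians of 0.042 and 0.062. A positive r is thus not particular to pairs of members. Members had a median r of −0.0059 in aPD-1 and −0.0091 in IgG with 10 genes of G1 and quiescence. The r values of the 630 pairs in one library and in the other had a correlation of 0.85, over pairs that share genes.

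Not every pair of well-measured members had a positive r. Ccnb2 with Top2a was at −0.010 in aPD-1 and −0.023 in IgG, the lowest r in IgG, although both were among the 9 members of at least 50 CPM, whereas Top2a with Aurkb was at 0.33 in aPD-1 and 0.31 in IgG. Among 8 genes listed as late mitotic (Cenpa, Cdc20, Ccnb1, Ccnb2, Aurka, Plk1, Nek2, Hmmr) the median r was 0.17 in aPD-1 and 0.23 in IgG. Among 8 listed as early G2 (Top2a, Mki67, Cdk1, Ccna2, Kif11, Nusap1, Ckap2l, Tacc3) it was 0.11 in aPD-1 and 0.15 in IgG. Between the lists it was 0.089 in aPD-1 and 0.135 in IgG.

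**Figure D3:**
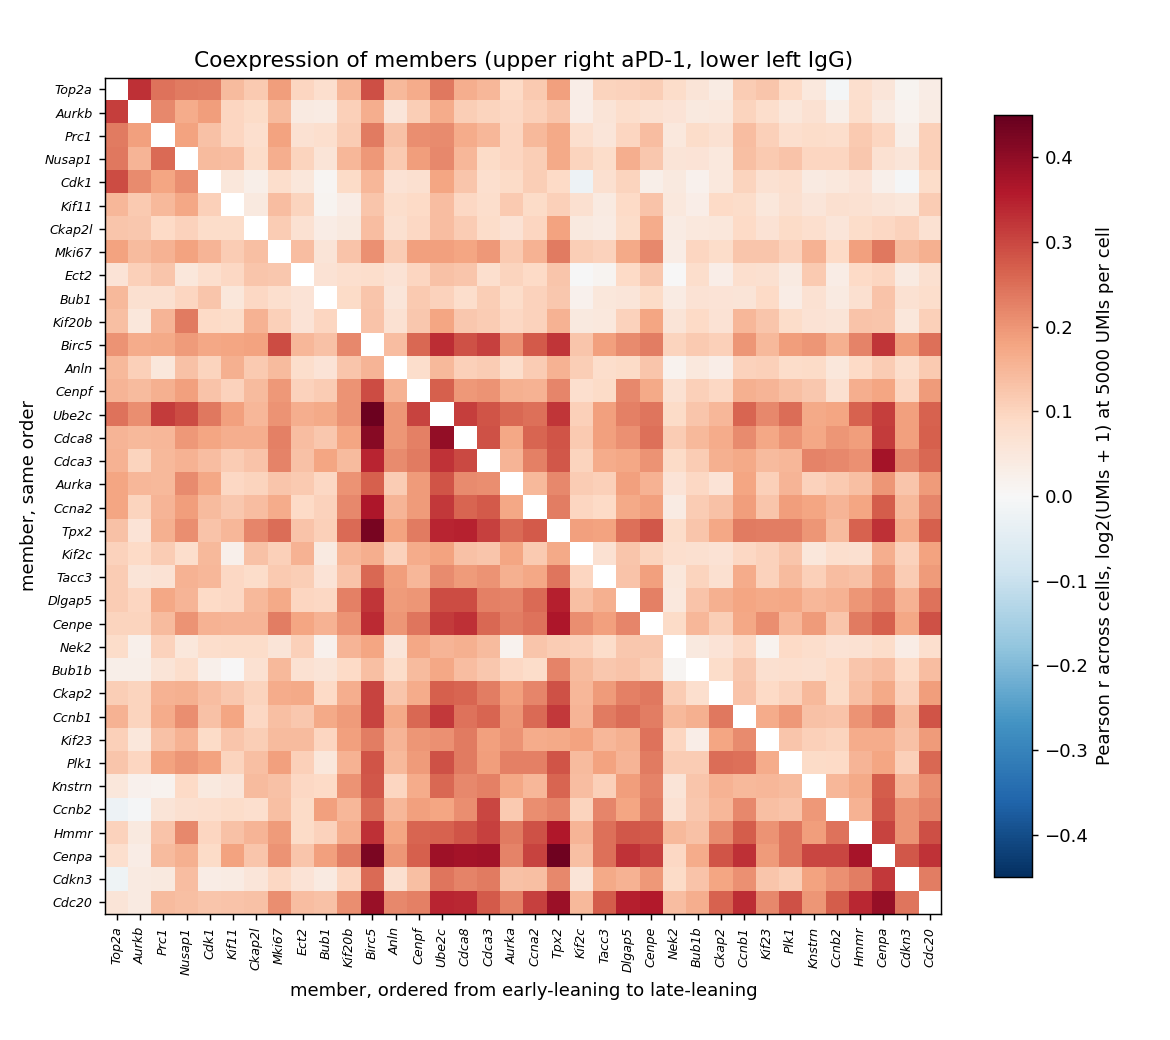
Pearson's r between members across thinned cells, upper right in aPD-1 (3356 cells) and lower left in IgG (2198 cells), with members ordered from early-leaning to late-leaning. Highest values surround Birc5, Ube2c, Tpx2 and Cenpa, and Top2a with Aurkb forms a separate corner.

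To order the members from early to late, cells with at least 5 UMIs of the late list were called late. The others with at least 5 of the early list were called early. These are ranges of a score and not cell types. The member being placed was left out of its own list. Its level in late over early cells was then above 1 for all 8 late genes in both libraries, with medians of 2.23 in aPD-1 and 2.38 in IgG. This follows largely from the choice of cells. The other late genes chose them, and all 28 pairs of late genes had a positive r in each library. The lists were also chosen with earlier results of these data known. The values above 1 are thus no separate support for the late list. The late end was Cdc20, at 2.94 in aPD-1 (interval 2.52 to 3.45) and 3.41 in IgG (interval 2.96 to 3.96). Cdkn3, which is in neither list, was also late, at 2.75 in aPD-1 (interval 2.26 to 3.38) and 3.21 in IgG (interval 2.63 to 3.94). The early end was Top2a, at 0.270 in aPD-1 (interval 0.238 to 0.307) and 0.231 in IgG (interval 0.206 to 0.260). Aurkb, also in neither list, followed at 0.417 in aPD-1 (interval 0.348 to 0.499) and 0.272 in IgG (interval 0.223 to 0.331). The early range rests largely on Top2a. With Top2a left out, early cells numbered 42 in aPD-1 and 36 in IgG, against 155 and 103 with both lists whole. Every other member, Aurkb included, was placed against early cells chosen in part by Top2a.

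The early list did not hold together by the level in late over early cells. Tacc3 was at 1.84 in aPD-1 and 1.65 in IgG and Ccna2 at 1.58 in aPD-1 and 1.51 in IgG, above 1 beyond their intervals in both libraries, and Mki67 was at 0.852 in aPD-1 and 1.147 in IgG. In all, 28 members leaned late and 7 early in both libraries. The ranges are not alike in mitotic content. Late cells held medians of 25 UMIs of the 67 other mitosis genes in aPD-1 and 28 in IgG, and early cells 23 in aPD-1 and 25 in IgG. Of the late cells, 39 of 313 in aPD-1 and 56 of 298 in IgG also had at least 5 early UMIs. The part of this in the count was not tested, so a value over 1 alone does not place a member in time. The early-leaning members were Top2a, Aurkb, Prc1, Nusap1, Cdk1, Kif11 and Ckap2l, of which Kif11 in aPD-1 and Ckap2l in both libraries had intervals that hold 1. Of the late-leaning members, Bub1 and Ect2 in both libraries and Birc5, Cenpf, Kif20b and Anln in aPD-1 also had intervals that hold 1. The placement in the libraries had an r of 0.96 over the 36 members, which share cells within each library.

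Genes of DNA replication were not used for the placement. Of 27 replication histone genes summed, 19 were under 10 CPM. Hist1h2ap alone gave 293 of the 699 CPM of the sum in aPD-1 and 300 of 672 CPM in IgG. Top2a had the highest r with this sum, 0.44 in aPD-1 and 0.33 in IgG, and Aurkb was next at 0.27 in aPD-1 and 0.24 in IgG. Late genes stood near 0, from −0.029 to 0.079 in aPD-1 and from −7.5e-06 to 0.090 in IgG. The early list had a median of 0.13 in each library, but it was not apart from the late genes throughout. Tacc3 (0.056 in aPD-1, 0.043 in IgG) and Ckap2l (0.060 in aPD-1, 0.083 in IgG) fell inside the late range, as did Kif11 in IgG (0.076). Early cells held a median of 8 replication histone UMIs in both libraries, and late cells 1 in aPD-1 and 2 in IgG. Of the S phase genes, early cells held a median of 11 UMIs in aPD-1 and 14 in IgG, and late cells 7 in aPD-1 and 8 in IgG. Early cells thus carried more S phase transcripts than late ones. Early G2 is the name of a list and not a phase shown for these cells. With the 34 S phase genes, Top2a again led, at 0.41 in aPD-1 and 0.39 in IgG. Across the 36 members the r with histone genes and the log2 ratio of aPD-1 over IgG had a Pearson's r of 0.69 in both libraries, and the r with S phase genes 0.49 in aPD-1 and 0.23 in IgG. These values were not taken again without Top2a and Aurkb.

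Early-leaning and late-leaning members differed in their ratios. The 7 early-leaning members had a median log2 ratio of 0.26 (from −0.28 to 0.38, with 3 of 7 under 0), and the 28 late-leaning ones −0.22 (from −0.64 to 0.16, with 24 of 28 under 0). Relative to the median of all genes, 2 of the 7 and 18 of the 28 were below it. Across all 36 members the log2 ratio and the log2 of late over early had a Pearson's r of −0.72 with the placement in aPD-1 and −0.69 with that in IgG. Without Top2a and Aurkb, which lie far out, they were −0.61 in aPD-1 and −0.55 in IgG. The members that remained had been placed with Top2a in the early list. All these r values are descriptions over genes that share the same cells, and both measures use the same libraries. Some members went against the order. Ube2c, Birc5, Cenpa and Ect2 leaned late and had ratios over 1, with an interval clear of 1 for Ube2c (1.07, interval 1.04 to 1.11) and not for the others. The late lean itself had an interval that holds 1 for Ect2 in both libraries and for Birc5 in aPD-1. Nusap1, Cdk1 and Kif11 leaned early and had ratios under 1, with an interval clear of 1 for Nusap1 (0.826, interval 0.753 to 0.906).

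**Figure D4:**
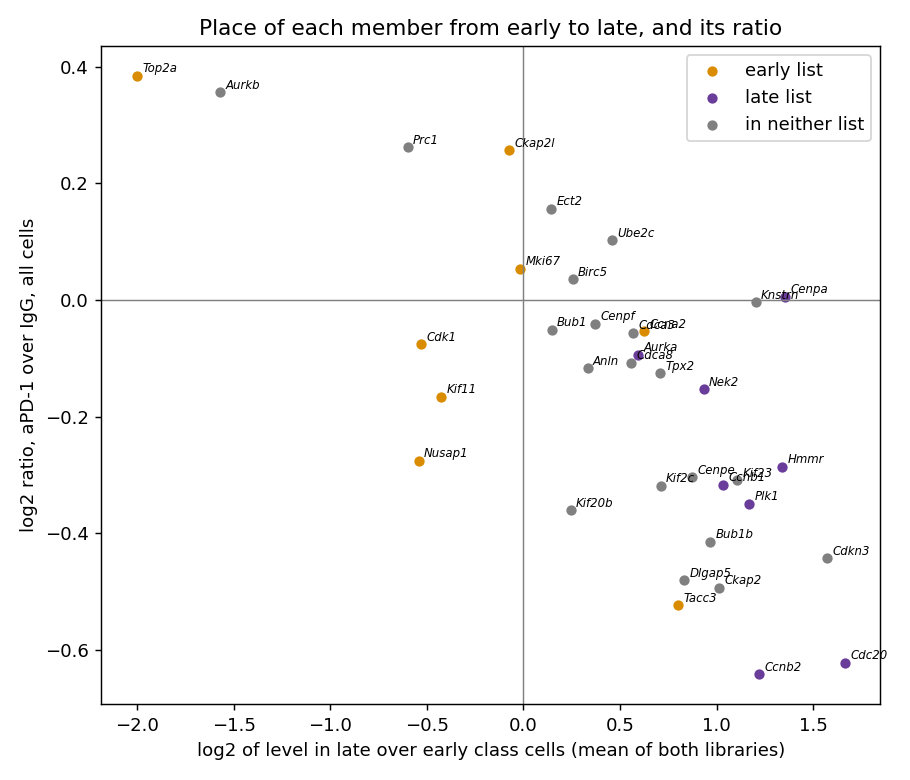
Log2 ratio of aPD-1 over IgG against the log2 of the level in late over early cells (mean of both libraries) for 36 members, coloured by list. Top2a and Aurkb lie at the upper left, and Ccnb2 and Cdc20 at the lower right.

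Summed, the late list was at 303 CPM in aPD-1, against 375 CPM in IgG (0.807, interval 0.790 to 0.823). Its log2 ratio was −0.31, and −0.21 relative to the median of all genes. The early list was at 306 CPM in aPD-1 against 296 CPM in IgG (1.03, interval 1.01 to 1.05), a log2 ratio of 0.05, and 0.15 relative to that median. Without the cells rich in other markers it was −0.023. The early list gave 1.01 UMIs per late UMI in aPD-1 (interval 0.991 to 1.03) and 0.790 in IgG (interval 0.773 to 0.807), a log2 difference of 0.36 (interval 0.31 to 0.40). This ratio within a library does not depend on the scaling. It depends on Top2a, which gave 38.7% of the early UMIs in aPD-1 and 30.6% in IgG: without Top2a the difference was 0.18 (interval 0.13 to 0.23), and the early list had a ratio of 0.912 (interval 0.888 to 0.937). Leaving out any other gene of the lists gave from 0.27 (Ccnb2) to 0.50 (Cenpa).

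The share of cells in each range also differed at the late end. Late cells were 313 of 3356 aPD-1 cells (9.33%, interval 8.36 to 10.4%) and 298 of 2198 IgG cells (13.6%, interval 12.2 to 15.1%). Early cells were 155 in aPD-1 (4.62%, interval 3.93 to 5.38%) and 103 in IgG (4.69%, interval 3.84 to 5.65%), and this depth could not show them to differ. Many cells lay near the threshold: 108 of the late aPD-1 cells and 75 of the late IgG cells had 5 late UMIs, and 144 aPD-1 and 102 IgG cells in neither range had 4. With a threshold of 3 UMIs early cells were 12.2% of aPD-1 cells and 7.60% of IgG cells, so the comparison of early shares depends on the threshold.

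The lists were also compared within ranges of the 67 other mitosis genes. Cells with 20 or more of these UMIs were 22.5% of aPD-1 cells (interval 21.1 to 24.0%) and 28.4% of IgG cells (interval 26.5 to 30.3%). Within them the early list stood at 621 CPM in aPD-1, against 620 CPM in IgG, and the late list at 647 CPM in aPD-1 against 788 CPM in IgG (0.821, interval 0.8003 to 0.843). Early over late was 0.959 in aPD-1 and 0.787 in IgG. In these cells Ccnb2 was at 86.9 CPM in aPD-1 against 140 CPM in IgG (0.622), Cdc20 at 98.1 CPM in aPD-1 against 147 CPM in IgG (0.667) and Top2a at 221 CPM in aPD-1 against 181 CPM in IgG (1.22), the same directions as over all cells. In cells with under 5 such UMIs early over late was 0.869 (interval 0.751 to 1.01) in aPD-1 and 0.818 (interval 0.705 to 0.949) in IgG, with intervals that overlap.

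The middle range looked different. In cells with 5 to 19 such UMIs, 56.9% of aPD-1 and 51.6% of IgG cells, the members summed to 1047 CPM in aPD-1, against 813 CPM in IgG (1.29, interval 1.27 to 1.31), and 31 of 36 had a ratio over 1. The 36 include the 5 members under 10 CPM over all cells. No share of all genes is given for this range, so the count is not a result about the members alone. The late list, lower in aPD-1 over all cells, was higher there, at 224 CPM in aPD-1 against 213 CPM in IgG (1.05, interval 1.02 to 1.09). The early list was at 243 CPM in aPD-1 against 169 CPM in IgG (1.44, interval 1.39 to 1.49). Top2a was at 103 CPM in aPD-1 against 57.8 CPM in IgG and Aurkb at 20.2 CPM in aPD-1 against 10.7 CPM in IgG there, whereas Ccnb2 was lower in aPD-1, at 52.7 CPM in aPD-1 against 71.9 CPM in IgG. Cdc20 was at 26.2 CPM in aPD-1 against 27.4 CPM in IgG (0.957, interval 0.866 to 1.06), an interval that holds 1. Neither range was matched in mitotic content between the libraries. Cells with 5 to 19 such UMIs held a mean of 10.7 in aPD-1 and 9.71 in IgG. Cells with 20 or more held 26.9 in aPD-1 and 29.2 in IgG. The part of this in the ratios was not tested, nor was that of Hmgb2 and Ube2s, which weigh heavily in the ranges.

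**Figure D5:**
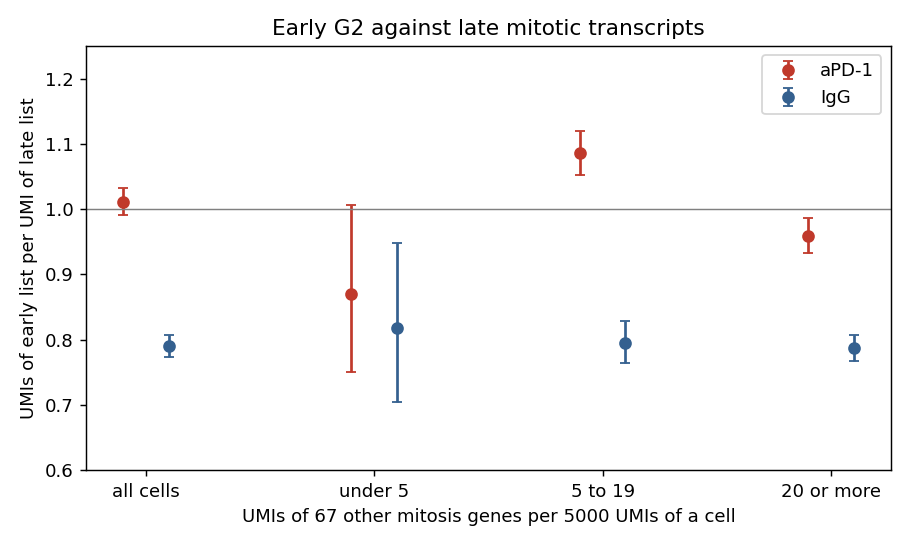
UMIs of the early list per UMI of the late list in all cells and in 3 ranges of 67 other mitosis genes, with exact intervals. The aPD-1 values (0.869 to 1.09) lie above the IgG values (0.787 to 0.818), with overlapping intervals in the range under 5.

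Of the 67 other genes of mitosis, 36 reached 10 CPM. By the same rule 5 were lower in aPD-1 (13.9%, beside 17.2% of all genes) and 5 higher (13.9%, beside 3.90%), and the median log2 ratio was −0.09, beside −0.10 for all genes. The extremes were Mybl2, a transcription factor subunit of MMB that acts in S phase and G2, at 47.1 CPM in aPD-1, against 30.8 CPM in IgG (1.53, interval 1.44 to 1.63), and Fbxo5 (Emi1), an inhibitor of the anaphase-promoting complex, at 13.02 CPM in aPD-1 against 9.43 CPM in IgG (1.38, interval 1.23 to 1.55). At the other end were Kif20a, a motor of the central spindle, at 9.05 CPM in aPD-1 against 16.1 CPM in IgG (0.562, interval 0.504 to 0.628), and the tubulin gene Tubb4b, at 94.7 CPM in aPD-1 against 137 CPM in IgG (0.692, interval 0.668 to 0.716). The 34 S phase genes had a median log2 ratio of 8.4e-05, beside −0.10 for all genes, with 4 higher (11.8%, beside 3.90% of all genes) and 1 lower (2.94%, beside 17.2%).

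Outside every list, the genes most like the summed members in aPD-1 cells were sought among 6604 genes of at least 10 CPM in each library, and then read in IgG cells, which had not chosen them. H2afz, a histone H2A variant gene, had an r of 0.66 in aPD-1 and 0.63 in IgG, and the chromatin protein gene Hmgb1 0.59 in aPD-1 and 0.59 in IgG. They were followed by 2810417H13Rik (0.50 in aPD-1, 0.50 in IgG), Cks1b, a cyclin-dependent kinase subunit (0.48 in aPD-1, 0.47 in IgG), Stmn1, which destabilises microtubules (0.44 in aPD-1, 0.45 in IgG), Tuba1b (0.40 in aPD-1, 0.43 in IgG), Ran (0.40 in aPD-1, 0.39 in IgG), Ptma (0.39 in aPD-1, 0.34 in IgG), 2700094K13Rik (0.39 in aPD-1, 0.38 in IgG) and Dek (0.37 in aPD-1, 0.41 in IgG). The 10 stood within the first 16 ranks in IgG.

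Some limits touch these values directly. Free RNA could be measured in the aPD-1 library alone, in 519382 barcodes under 500 UMIs. There the members summed to 1485 CPM, against 1403 CPM in its cells. Cdc20 was at 77.6 CPM in these barcodes and 41.0 CPM in cells, and Top2a at 74.9 CPM in them and 118 CPM in cells. The part of free RNA in the ratios was not tested. A gene on the other strand overlaps 16 of the 36 members in GENCODE M21, among them Elovl1 at Cdc20 and Tmem129 at Tacc3, and the sources used here do not say whether counting used the strand.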

How the data were processed

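Per the file headers, the deposited UMI counts per gene and barcode were written by Cell Ranger 3.0.2 without normalisation. Seurat 2.1.0 and the mouse build mm10 are named in the submitters' processing notes, and no source used here names the gene annotation. The IgG matrix held 4351 barcodes and 52720076 UMIs, and the aPD-1 matrix all 737280 possible barcodes and 68385785 UMIs. A floor of 5000 UMIs was set alike in both. No doublets were called or removed. Counts were summed per library and divided by all UMIs of the sum, and ratios were taken without a pseudocount, with exact conditional binomial intervals; levels carry exact Poisson and shares exact Clopper-Pearson intervals. With 1 library per group no test was made. Python 3.11.15, numpy 2.4.6 and scipy 1.17.1 were used. Ratio and correlation steps were tested on simulated data. All 36 members are named, with the 4 most extreme other mitosis genes and the 10 genes most like the module. Gene positions are from GENCODE M21 on GRCm38 and promoter windows from RefSeq on GRCm38.p6, with 32 of 36 members matched. Members, lists and thresholds were chosen with earlier results of these data known. Alternatives in UMI floor, mitochondrial limit, weighting, scaling, low-gene filter and cells are given at the end.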

Additional observations from a re-analysis of the deposited data

How the results depend on the processing

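No paired analysis was possible because each group had 1 library. The log2 difference of early over late between the libraries, 0.36, stayed above 0 in all 10 alternatives, and was 0.29 in cells with 20 or more other mitosis UMIs and 0.41 without the 5% of cells with the most UMIs; both alternatives were chosen after seeing the data. The summed late list (−0.31) stayed under 0 in the same 10, with −0.26 at a mitochondrial limit of 5%, −0.35 with cells weighted equally, −0.21 when centred on all genes, −0.21 without ribosomal protein and mitochondrial genes in the totals, and −0.37 without cells carrying other markers. The summed early list (0.05) was 0.11, 0.0068, 0.15, 0.15 and, reversed, −0.023 under those 5, 0.0020 in cells with 20 or more other mitosis UMIs and 0.094 without the 5% of cells with the most UMIs. The summed members (−0.11) were −0.058, −0.13, −0.0042, −0.0035 and −0.17 under the same 5, and −0.090 at a floor of 10000 UMIs. Cdca3 reversed to 0.045 when centred and to 0.046 without ribosomal protein and mitochondrial genes. Members higher in aPD-1 (2) numbered 4 without ribosomal protein and mitochondrial genes, and 0 without marker cells, at 1.5-fold and in cells with 20 or more other mitosis UMIs. Members lower (9) numbered 14 without marker cells and 2 at 1.5-fold. The cause was not tested. Shares of all genes are given above only for all cells without rescaling, so the other counts have none beside them. Of 360 member values over these alternatives, 285 moved by less than their counting interval, 73 by more and 2 reversed. With a threshold of 3 UMIs late cells were 20.2% in aPD-1 and 25.8% in IgG, and early cells 12.2% in aPD-1 and 7.60% in IgG. With 8 UMIs late cells were 2.38% in aPD-1 and 5.00% in IgG, and early cells 1.13% in aPD-1 and 1.27% in IgG. A second random thinning gave 5.45% early cells in aPD-1, above the interval of 3.93 to 5.38% given for the first. That interval thus does not cover the spread from thinning. The IgG share under the second thinning is not given here. Without thinning the median pair r was 0.28 in aPD-1 and 0.36 in IgG. Depth limits members under 10 CPM most, and intervals cover counting error only.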

Other observations

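Among genes outside every list, those with the most negative r with the summed members were read after their values were seen. Malat1, a nuclear noncoding RNA, had −0.47 in aPD-1 and −0.48 in IgG. Ftl1, a ferritin light chain gene, had −0.36 in aPD-1 and −0.29 in IgG, and Klf4, a transcription factor gene, −0.34 in aPD-1 and −0.29 in IgG.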
